A study of Mus musculus with 20 samples.

Results

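Paneth cells sit at the base of the crypts of the small intestine, between the stem cells, and store antimicrobial proteins in large granules that they release into the crypt lumen. The granule genes described here are Lyz1, Mmp7, Ang4, Itln1 and the alpha-defensins Defa5, Defa17, Defa20, Defa21, Defa24 and Defa26. They were taken by name, as every probe on the array that carries one of these 10 gene names. Of these, 7 had a probe of their own name, with 10 probes among 56605 on the array, and Defa5, Defa17 and Defa20 had none.

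Alpha-defensins are made as inactive precursors, and in the mouse the metalloproteinase Mmp7 cuts them into the active peptides. Lyz1 is the lysozyme of Paneth cells and breaks bacterial cell walls, Ang4 is a secreted ribonuclease with antimicrobial activity, and Itln1 is a lectin that binds microbial sugars. Wnt signalling at the crypt base is known to drive the Paneth cell programme.

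RNA of intestinal tissue from C57BL6/j mice was measured on 20 Agilent 1-colour arrays, 1 per mouse, and the labels do not give the stretch of intestine. The 6 Cre control mice were VillinCreER/0 and the 6 BRAFV600E mice VillinCreER/0/BrafV600E-LSL/+, all 8 to 12 weeks old, given 3 daily doses of tamoxifen and sampled 3 days after the last. The other arrays were 4 MEKi mice, given the MEK inhibitor PD184352, and 4 Vehicle mice, given its carrier, in each case as 3 doses after 2 daily doses of tamoxifen. The labels do not state the genotype or age of the MEKi and Vehicle mice, but the study's legends describe both as expressing BRAFV600E. Since the Villin promoter drives Cre in the gut epithelium, BRAFV600E was switched on in epithelial cells while the RNA came from the whole tissue. In such bulk RNA, fewer Paneth cells and less RNA per Paneth cell cannot be told apart. The treatment text in the labels describes atorvastatin and is the same for all 20 arrays, so it separates no groups.

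Levels are log2 of the processed signal minus the 75th percentile of the array, so a level of 0 is the 75th percentile and 1 unit is a doubling of signal. Levels of different probes are not set against each other. The 75th percentile lay between 525 and 1518 signal units over the 20 arrays, and no probe of a granule gene was saturated or marked as an outlier. By group, the percentile ran from 525 to 1238 in Cre control and from 852 to 1518 in BRAFV600E. Genes downstream of the MAPK pathway moved with the labels: 9 of 12 listed were higher in BRAFV600E and 6 of 12 lower in MEKi, among them Etv4, at 2.50 and -2.95 log2 units. A high signal of Y-linked genes was found in 3 of 6 Cre control, 4 of 6 BRAFV600E, 4 of 4 MEKi and 2 of 4 Vehicle arrays, whereas the study's methods give equal numbers of each sex for the first pair of groups. One slide held all Cre control arrays together with BRAFV600E replicates 1 and 2, a second the remaining 4 BRAFV600E arrays, and MEKi and Vehicle filled 1 row each of the third, so that row and treatment cannot be told apart there.

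The first comparison asks how the granule genes stood in BRAFV600E mice 3 days after the last dose of tamoxifen. They were lower: 6 of the 7 genes fell at a limma adjusted p under 0.05, by between 0.96 and 3.63 log2 units, and none rose. Over all 38493 probes tested, 9.33% were called, 4.21% lower and 5.12% higher. The median change of the 7 genes was -2.10, beside -0.01 over all probes. By probe, 9 of 10 fell. All BRAFV600E arrays lay below all Cre control arrays for 5 of the 7 genes, which held for 2.38% of all probes. The groups did not overlap for 6.41% of all probes, with BRAFV600E above in 4.03%.

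Lyz1 (mm9 chr10:116724862-116724921) had Cre control levels between 7.60 and 8.36 with a median of 8.10. The BRAFV600E levels ran from 5.11 to 7.16 with a median of 5.94. The groups did not overlap, and the BRAFV600E arrays were the more spread out. Lyz1 fell 4.01-fold, from 8.06 ± 0.30 to 6.05 ± 0.79 (SD, n = 6 each; log2 change -2.01, SE 0.32, limma adjusted p = 0.00295).

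Lyz2, the lysozyme of macrophages and a close copy of Lyz1, was measured by 2 probes of its own. Both fell in BRAFV600E, the brighter by 1.75 and the dimmer by 1.51 log2 units (limma adjusted p = 0.00741 and 0.0252). Without scaling neither was called, and the dimmer lost its call in 9 of 24 other settings in all. In MEKi their differences were 0.72 and 0.46, neither past the threshold. Array by array, the brighter Lyz2 probe differed from the Lyz1 probe by -0.64 to 0.37 over the 20 arrays and the dimmer by -8.59 to -6.00, so the brighter one followed Lyz1 closely and is not taken as a separate reading. Whether it also reads Lyz1 RNA was not tested.

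Mmp7, the enzyme that activates the alpha-defensins, was measured by 2 probes on chromosome 9. For the brighter (mm9 chr9:7699476-7699535), Cre control levels lay between 4.10 and 4.75 with a median of 4.42, and BRAFV600E levels between 0.85 and 3.52 with a median of 2.47. Every BRAFV600E array was below every control. Mmp7 fell 4.27-fold, from 4.43 ± 0.22 to 2.33 ± 1.03 (SD, n = 6 each; log2 change -2.10, SE 0.39, limma adjusted p = 0.00749). The other probe fell by 1.77 log2 units (limma adjusted p = 0.0121).

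Itln1, the lectin, had 3 probes of that name, and all fell. Its brightest (mm9 chr1:173448282-173448341) read 8.06 to 8.81 in Cre control, median 8.44, and 4.67 to 7.46 in BRAFV600E, median 6.35. No BRAFV600E array reached the control range. The fall was 4.75-fold, from 8.41 ± 0.28 to 6.16 ± 1.05 (SD, n = 6 each; log2 change -2.25, SE 0.41, limma adjusted p = 0.00607). The other probes fell by 2.53 and 2.58 log2 units, and share a run of 24 bases with each other. Neither lists a transcript assigned to Itln1 in RefSeq or has a genome position, so they are Itln1 by probe name only. Whether they read Itln1 RNA was not tested.

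Ang4, the ribonuclease (mm9 chr14:52384066-52384125), was the 1 granule gene that missed the threshold. Cre control levels lay between 4.33 and 4.92 with a median of 4.55, and BRAFV600E levels between 1.25 and 4.71 with a median of 3.14. Of the 6 BRAFV600E arrays 5 were below all controls, and replicate 5 lay within their range. The means were 4.58 ± 0.20 and 2.94 ± 1.38 (SD, n = 6 each), with a log2 difference of -1.65, SE 0.51 and a limma adjusted p of 0.0614. Without BRAFV600E replicate 5, Ang4 passed the threshold, with a limma adjusted p of 0.0221.

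**Figure D1:**
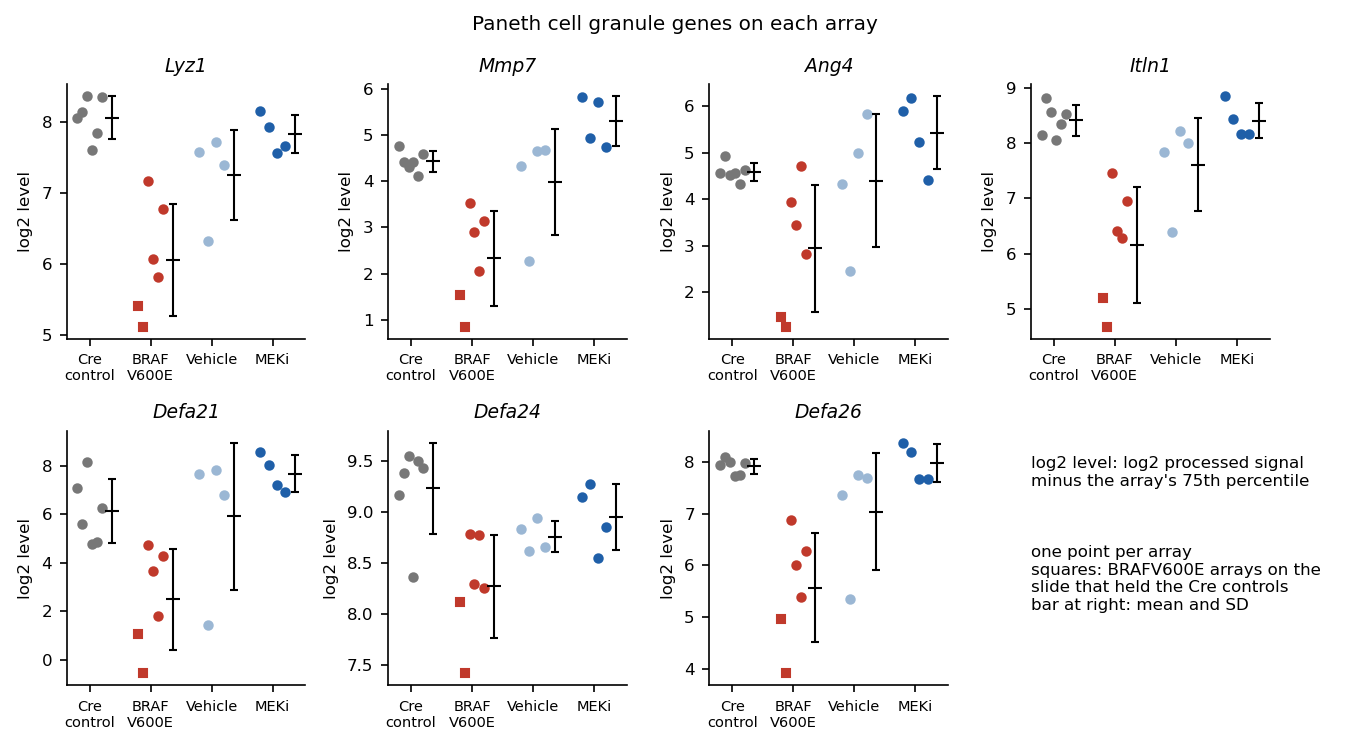
Level of each granule gene on each array, as log2 of the processed signal minus the 75th percentile of the array, for Cre control, BRAFV600E, Vehicle and MEKi, with the mean and SD as bars and squares for BRAFV600E arrays on the slide of the controls. Every BRAFV600E point of Lyz1, Mmp7, Itln1, Defa21 and Defa26 lies below the Cre control points, and Vehicle replicate 2 is the lowest Vehicle point for each of the 7 genes.

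The alpha-defensin genes are near copies of each other in a cluster on chromosome 8, and their probes share bases. The Defa21 and Defa2 probes and the Defa26 and Defa-ps1 probes are printed as examples of shared bases, and other defensin probes share longer runs. Capitals mark the longest run shared within a pair, and all are in the 5′ to 3′ direction of the array's design file, with mm9 positions of chr8:22166019-22166078, chr8:22620525-22620584, chr8:22728711-22728770 and chr8:22805553-22805612.
Defa21: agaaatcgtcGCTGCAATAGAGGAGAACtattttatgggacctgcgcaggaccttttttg
Defa2: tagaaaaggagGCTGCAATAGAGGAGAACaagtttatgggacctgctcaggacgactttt
Defa26: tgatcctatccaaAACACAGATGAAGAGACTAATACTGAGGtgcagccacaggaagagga
Defa-ps1: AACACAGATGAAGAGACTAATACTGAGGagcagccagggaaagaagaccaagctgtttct
The shared runs are 18 and 28 bases. The Defa24 probe shares 35 bases with a Defa23 probe and 34 and 31 with 2 Defa1 probes, and the run common to all of them is printed because it limits what Defa24 can be said to measure.
Defa24, Defa23 and Defa1: ggccactgatgctggtgcctgatgac
By the transcripts listed for each probe, the Defa21 probe also lists Defa22, the Defa24 probe Defa30, and the Defa26 probe Defa22 and Defa40. A defensin name below is thus the name of a probe, whose signal may come from several genes.

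Defa21 had the largest log2 change of the 7 genes and the largest spread. Its Cre control levels ran from 4.77 to 8.15 with a median of 5.92, and its BRAFV600E levels from -0.57 to 4.71 with a median of 2.73. The groups did not overlap. The fall was 12.4-fold, from 6.11 ± 1.32 to 2.48 ± 2.06 (SD, n = 6 each; log2 change -3.63, SE 0.89, limma adjusted p = 0.0259). The limma adjusted p was 0.0527 without BRAFV600E replicate 1 and 0.0603 without Cre control replicate 3, with changes of -3.34 and -3.22.

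Defa26 read 7.72 to 8.09 in Cre control, median 7.96, the narrowest of the defensin control ranges. In BRAFV600E it read 3.91 to 6.87, median 5.70, so that all 6 arrays were below the controls. It fell 5.09-fold, from 7.92 ± 0.15 to 5.57 ± 1.05 (SD, n = 6 each; log2 change -2.35, SE 0.40, limma adjusted p = 0.00419).

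Defa24 (mm9 chr8:22845881-22845940) changed least. Cre control levels lay between 8.36 and 9.55 with a median of 9.40, and BRAFV600E levels between 7.42 and 8.78 with a median of 8.27. The groups overlapped, with 4 of 6 BRAFV600E arrays below all controls. It fell 1.94-fold, from 9.23 ± 0.45 to 8.27 ± 0.50 (SD, n = 6 each; log2 change -0.96, SE 0.26, limma adjusted p = 0.0396), a call lost in 15 of 25 other settings. Its signals stood at 32.3 to 72.8% of the scanner's saturation level over all 20 arrays, and the part of this in the smaller change was not tested.

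**Figure D2:**
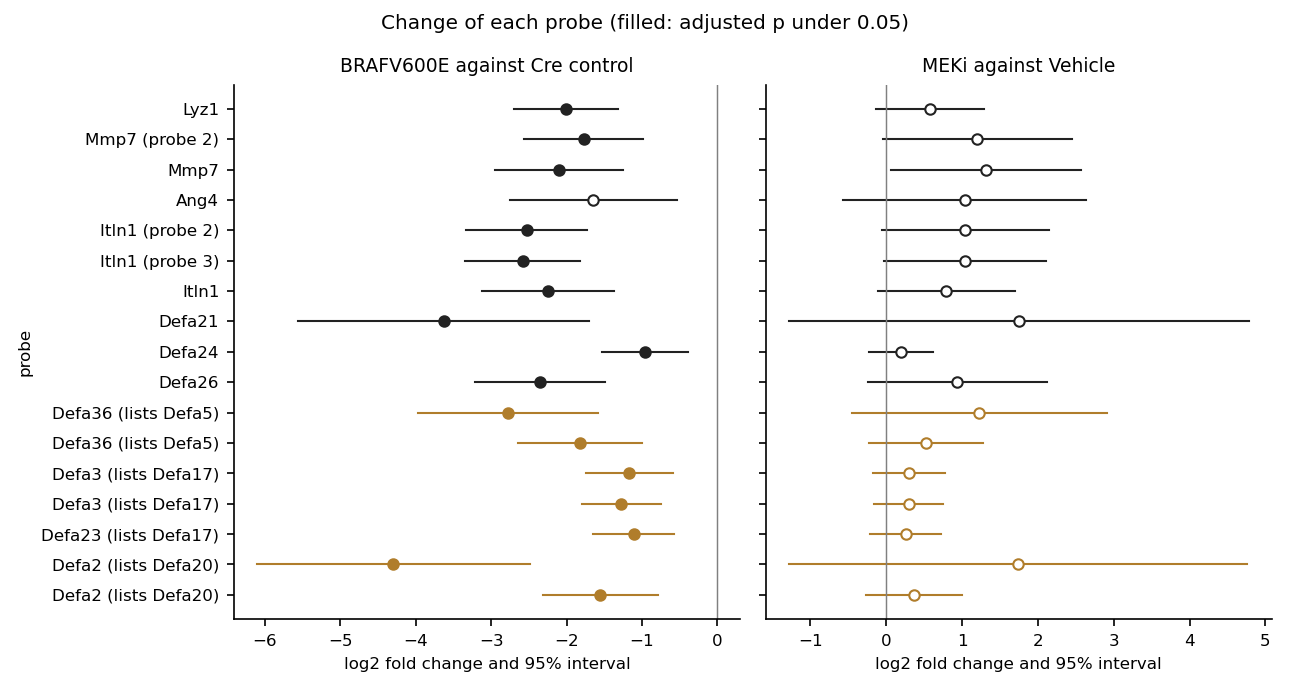
Log2 fold change of each granule gene probe with its 95% interval from limma, for BRAFV600E against Cre control and for MEKi against Vehicle. A second colour marks the Defa36, Defa3, Defa23 and Defa2 probes that list Defa5, Defa17 or Defa20, the lowest being Defa2 at -4.30 in BRAFV600E. All changes of the 7 granule genes are negative in the first comparison, from -3.63 for Defa21 to -0.96 for Defa24. All 7 are positive in the second, where no adjusted p passed 0.05.

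The genes with no probe of their own name were listed among the transcripts of probes named for other defensins. Defa5 was listed by both Defa36 probes, which fell by 2.77 and 1.82 log2 units in BRAFV600E (limma adjusted p = 0.00998 and 0.0126). Defa17 was listed by both Defa3 probes and a Defa23 probe, which fell by 1.17, 1.27 and 1.11 (limma adjusted p = 0.0196, 0.00826 and 0.0178). Defa20 was listed by both Defa2 probes, which fell by 4.30 and 1.55 (limma adjusted p = 0.00923 and 0.0195). In each case the probe lists other defensins too, so these are not values of Defa5, Defa17 or Defa20 alone.

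The rest of the alpha-defensin family had 30 probes. In BRAFV600E, 24 of the 26 tested fell and none rose, with a median of -1.81 and a range from -4.30 to -0.99. The number that fell was 13 without scaling between arrays and 16 with quantile values. The uncalled probes were 1 of Defa1 and that of Defa4. That Defa1 probe, at -1.05 (limma adjusted p = 0.065), also lists Defa24. The Gm15292 probe, which also lists Defa26, fell by 1.32 (limma adjusted p = 0.0212). In MEKi, none of the 25 tested was called, and all 25 differences were positive, from 0.14 to 1.93 with a median of 0.52. Since these probes overlap in sequence with each other and with those of the granule genes, they are not separate measurements.

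**Figure D3:**
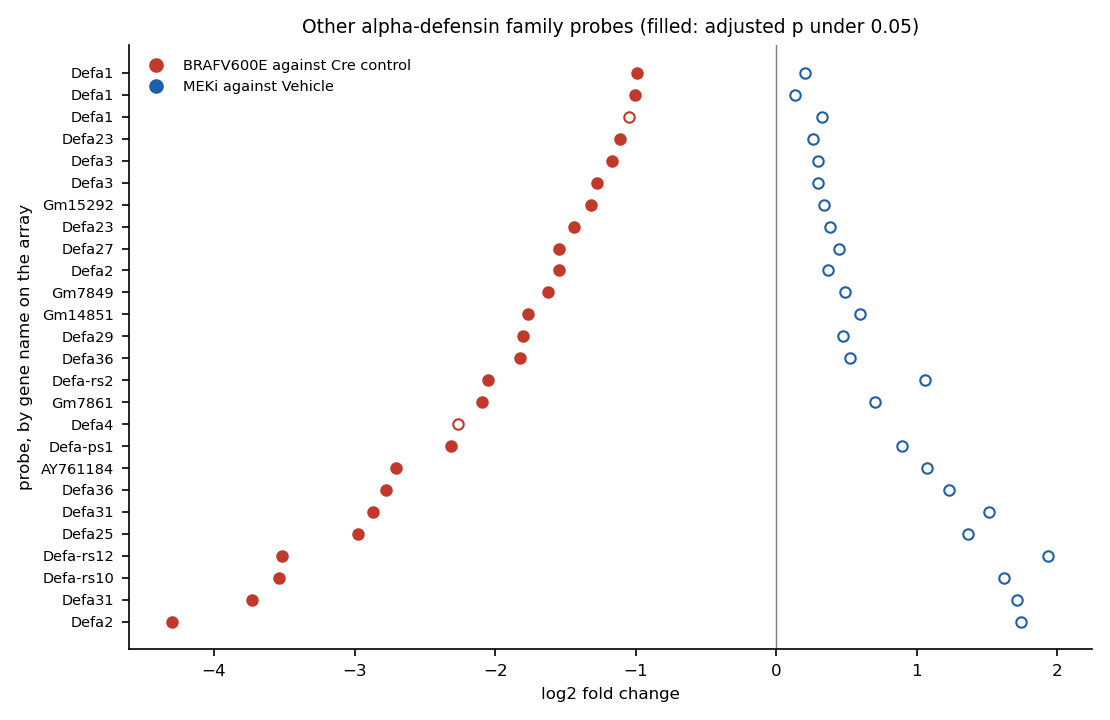
Log2 fold change of the other alpha-defensin probes, 1 row per probe, ordered by the change in BRAFV600E against Cre control, with filled points for a limma adjusted p under 0.05. All 26 tested probes lie left of 0 in BRAFV600E and all 25 tested lie right of 0 in MEKi.

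The second comparison asks how the same genes stood when MEK was inhibited. All 7 were higher on average in MEKi, by 0.19 to 1.75 log2 units with a median of 0.94, beside 0.03 over all probes. None passed the limma test, with adjusted p from 0.350 to 0.736, and 1 of the 7, Mmp7, had an unadjusted p under 0.05. Over all 39245 probes tested, 0.928% were called, 0.52% higher and 0.408% lower. All MEKi arrays lay above all Vehicle arrays for 1 of the 7 genes, beside 5.4% of all probes. For all probes the share with MEKi below was 4.65%, and 10% in either direction did not overlap.

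Mmp7 was that gene. Its brighter probe read 5.82, 4.92, 5.70 and 4.74 in MEKi and 4.32, 2.27, 4.66 and 4.68 in Vehicle. The groups were apart by a narrow margin, and Vehicle replicate 2 stood far below the other Vehicle arrays. The log2 difference was 1.32 (SE 0.55, 95% interval 0.06 to 2.58, limma adjusted p = 0.350).

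Lyz1 read 8.16, 7.93, 7.55 and 7.66 in MEKi and 7.57, 6.32, 7.72 and 7.38 in Vehicle. The groups overlapped. The difference was 0.58 (SE 0.31, limma adjusted p = 0.492). For Itln1 the levels were 8.85, 8.44, 8.17 and 8.17 against 7.84, 6.38, 8.22 and 8.01, also overlapping, with a difference of 0.80 (SE 0.39, limma adjusted p = 0.443). Ang4 read 5.91, 6.17, 5.23 and 4.41 in MEKi and 4.32, 2.46, 4.99 and 5.82 in Vehicle. Its Vehicle range enclosed 2 of the MEKi arrays, and the difference was 1.03 (SE 0.70, limma adjusted p = 0.604).

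Among the defensins, Defa21 read 8.57, 8.03, 7.19 and 6.90 in MEKi and 7.66, 1.43, 7.83 and 6.78 in Vehicle. Vehicle replicate 2 set most of its difference of 1.75 (SE 1.33, limma adjusted p = 0.652), which was 0.25 without that array. Defa26 read 8.38, 8.20, 7.67 and 7.67 against 7.36, 5.35, 7.75 and 7.70, with a difference of 0.94 (SE 0.52, limma adjusted p = 0.500). Defa24 read 9.14, 9.27, 8.54 and 8.85 against 8.83, 8.61, 8.93 and 8.65, with a difference of 0.19 (SE 0.19, limma adjusted p = 0.736). Both overlapped between the groups. Without Vehicle replicate 2 the 7 differences were all still positive, between 0.15 and 0.75 with a median of 0.38, and none was called.

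The granule genes varied together from array to array. With the group means removed, the level of each gene over the 20 arrays had a Pearson r with the mean of the other 6 of 0.93 for Lyz1, 0.90 for Mmp7, 0.74 for Ang4, 0.95 for Itln1, 0.88 for Defa21, 0.58 for Defa24 and 0.97 for Defa26. The arrays share slides, and the defensin probes share bases, so these are a description. The mean of the 7 genes lay between 6.50 and 7.35 in Cre control and between 6.92 and 7.83 in MEKi. In BRAFV600E it was 3.96, 3.23, 6.06, 5.25, 4.98 and 5.50 for replicates 1 to 6. In Vehicle it was 6.84, 4.69, 7.15 and 7.00.

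The lowest array of BRAFV600E and the lowest of Vehicle also differed in genes that mark the stretch of intestine. These genes were picked after their values were seen. Cybrd1, a duodenal iron reductase, stood at 6.48 on BRAFV600E replicate 2 and 6.29 on Vehicle replicate 2, against -2.99 to -0.31 on the other 18 arrays. Slc40a1, the iron exporter, stood at 5.01 and 5.50 on the same arrays, against -2.39 to 1.00. Cubn, a receptor of the distal small intestine, stood at -4.95 and -3.43 there, and was 4.10 to 4.48 in Cre control and -4.95 to 0.63 over all BRAFV600E arrays. BRAFV600E replicate 1 had the next lowest granule gene mean of its group. Its Cybrd1 level was -0.31, the highest of the other 18 arrays, with Slc40a1 at 0.71 and Cubn at -1.59. Clps, a pancreatic colipase that some Paneth cell lists also hold, stood at 8.15 on Vehicle replicate 2 and between 0.92 and 5.70 on the other 19. On the same array Rnase1 stood at 4.63, against -3.19 to -0.29 on the other 19, and Pnliprp2 at 4.50, against 0.44 to 3.34. What set these levels on Vehicle replicate 2 was not tested. Of the listed distal genes, 3 of 7 fell in BRAFV600E (Cubn -5.31, Mep1a -3.00, Slc51a -1.27), and of the proximal genes 1 of 6 rose (Gata4 0.49), a call lost in 15 of 25 other settings. The mean of the distal list lay between -0.99 and 1.22 in BRAFV600E and between 1.63 and 2.29 in Cre control, and that of the proximal list between 2.83 and 5.58 and between 2.60 and 3.09. Fabp6 and Slc10a2, also read for the sampled stretch, did not follow Cubn in BRAFV600E. Fabp6 ran from -3.30 to -1.55 there and from -3.89 to -2.99 in Cre control. Slc10a2 ran from -4.77 to -2.58 and from -4.87 to -2.75. On Vehicle replicates 1, 3 and 4 Fabp6 stood at 3.76, 2.91 and 1.35, against -1.72 to 0.45 in MEKi. Slc10a2 on those replicates was also above all MEKi arrays, which read -4.37 to -3.60. The part of the sampled stretch in the granule gene changes was not tested.

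The slides gave the same direction with different sizes. On slide 1 alone, which held all Cre control arrays and BRAFV600E replicates 1 and 2, the median change of the 7 genes was -3.24, and 6 were called, with Ang4 at -3.23 (limma adjusted p = 0.000822) and Defa24 at -1.46 not called (limma adjusted p = 0.0777). Replicate 2 is the BRAFV600E array with Cybrd1 at 6.48. With the slide as a block the median was also -3.24, since slide 2 held no control, so these settings are not separate. With the 4 BRAFV600E arrays of slide 2 set against the Cre control arrays of slide 1, a choice made after seeing the data, the median was -1.61, and Lyz1, Mmp7, Itln1 and Defa26 were called. There slide and genotype cannot be told apart. Without BRAFV600E replicate 2, 5 of the 7 were called, with Defa24 and Ang4 missing the threshold.

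**Figure D4:**
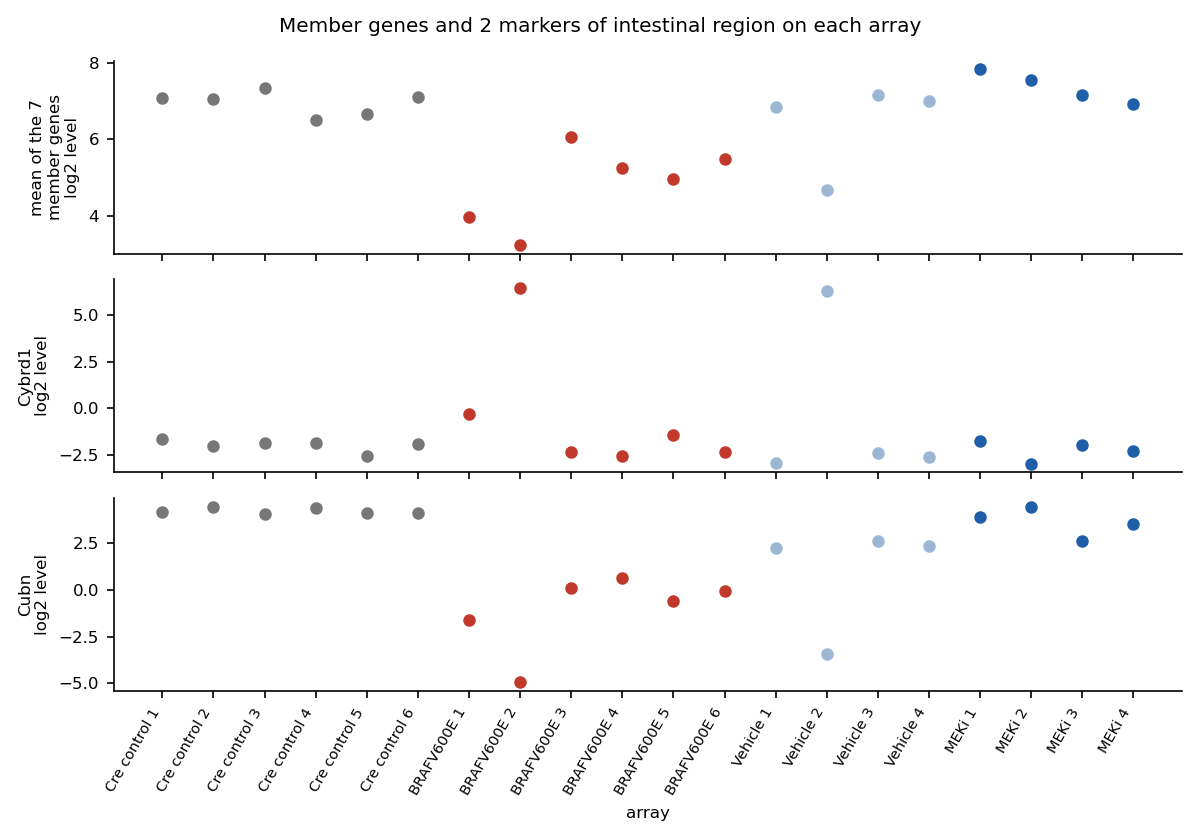
Level on each of the 20 arrays of the mean of the granule genes, of Cybrd1 and of Cubn, as log2 of the processed signal minus the array's 75th percentile. BRAFV600E replicate 2 and Vehicle replicate 2 hold the lowest granule gene mean of their groups, 3.23 and 4.69, and the highest Cybrd1 levels, 6.48 and 6.29.

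Other genes known from Paneth cells moved the same way in BRAFV600E. Of 29 tested, 13 fell and none rose, with a median of -1.02, while without scaling between arrays 9 fell and 3 rose. The mucosal pentraxins Mptx1 and Mptx2 fell by 3.61 and 3.40 log2 units, Clps fell by 2.85 and Nxf7 fell by 2.78 (limma adjusted p = 0.00368, 0.0083, 0.000105 and 0.00494). In MEKi 3 of 29 rose, Nxf7 by 2.15, Fgfrl1 by 1.52 and Lypd8 by 0.91. None was called without scaling, with the Y-linked covariate or without MEKi replicate 1, MEKi replicate 3, Vehicle replicate 3 or Vehicle replicate 4, and 1 without Vehicle replicate 1. Mptx1 and Mptx2 differed by 2.74 and 2.61 in MEKi and were not called (limma adjusted p = 0.311 and 0.374).

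Genes that control the lineage moved less. In BRAFV600E, 3 of 21 fell and 1 rose, with a median of -0.20. Ascl2, a Wnt-driven factor of crypt base stem cells, fell by 1.52 (limma adjusted p = 3.35e-05), Bhlha15, which shapes secretory cells, by 1.23, and the growth factor receptor Fgfr3 by 1.00, while Creb3l1 rose by 0.58, a call lost in 13 of 25 other settings. Sox9, needed for Paneth cells to form, stood at -0.57, Atoh1, the switch of the secretory lineage, at -0.32, Gfi1 at -0.56, Spdef at -0.29 and Xbp1 at -0.14, none of them called (limma adjusted p = 0.124, 0.279, 0.118, 0.256 and 0.476) and all positive where arrays were not scaled to each other. In MEKi 1 of 21 was called, Ascl2, which rose by 1.00 (limma adjusted p = 0.0484), a call lost in 11 of 18 other settings, among them each of the 8 with 1 array left out. Gfi1 stood at 0.88 (limma adjusted p = 0.0551). Of 17 genes of the granule and secretory machinery tested, 1 rose and 1 fell in BRAFV600E, the exocytosis protein Rab3d by 0.60 and the chromogranin Chga by 1.99, and the Rab3d call was lost in 14 of 25 other settings. Chga is the marker by which the study counted enteroendocrine cells, so its fall is not a reading of Paneth cells. In MEKi 1 of 17 rose, Irgm1, by 1.62, a call lost in 9 of 18 other settings.

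Neighbouring cell types were read from lists of their markers. Of 12 goblet cell genes, 3 fell in BRAFV600E (Ccl6 -2.08, Zg16 -0.93, Muc2 -0.82, the last lost in 6 of 25 other settings) and 2 rose, among them Gcnt3 at 1.15. The list mean lay between 4.04 and 5.40 against 4.55 to 5.15 in Cre control. Of 10 crypt base stem cell genes, Tnfrsf19 fell by 0.90 and Axin2 by 0.72, but Axin2 lost its call in 16 of 25 other settings and turned positive in 1 more, without scaling. Lgr5 stood at -0.84 (limma adjusted p = 0.051) and Olfm4 at -0.10 (limma adjusted p = 0.885). That list's mean lay between 0.66 and 0.81 against 1.09 to 1.24. Of 12 macrophage and neutrophil genes, Lyz2, read here by the probe that followed Lyz1, and Csf1r fell, neither called without scaling, with list means of 0.52 to 1.84 against 0.98 to 2.48. Of 7 general epithelial genes, 3 rose, Krt19 by 0.94, Krt18 by 0.87 and Cdh1 by 0.61, with list means of 5.95 to 6.53 in BRAFV600E and 5.47 to 5.91 in Cre control. Of 7 smooth muscle genes Des rose by 0.94 and Actg2 by 0.71, with list means of 2.01 to 2.88 against 1.80 to 2.47. The part of these shifts in the granule gene changes was not tested. In MEKi, 1 goblet gene was called, Gcnt3, which fell by 1.69, and none of the other 4 lists.

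**Figure D5:**
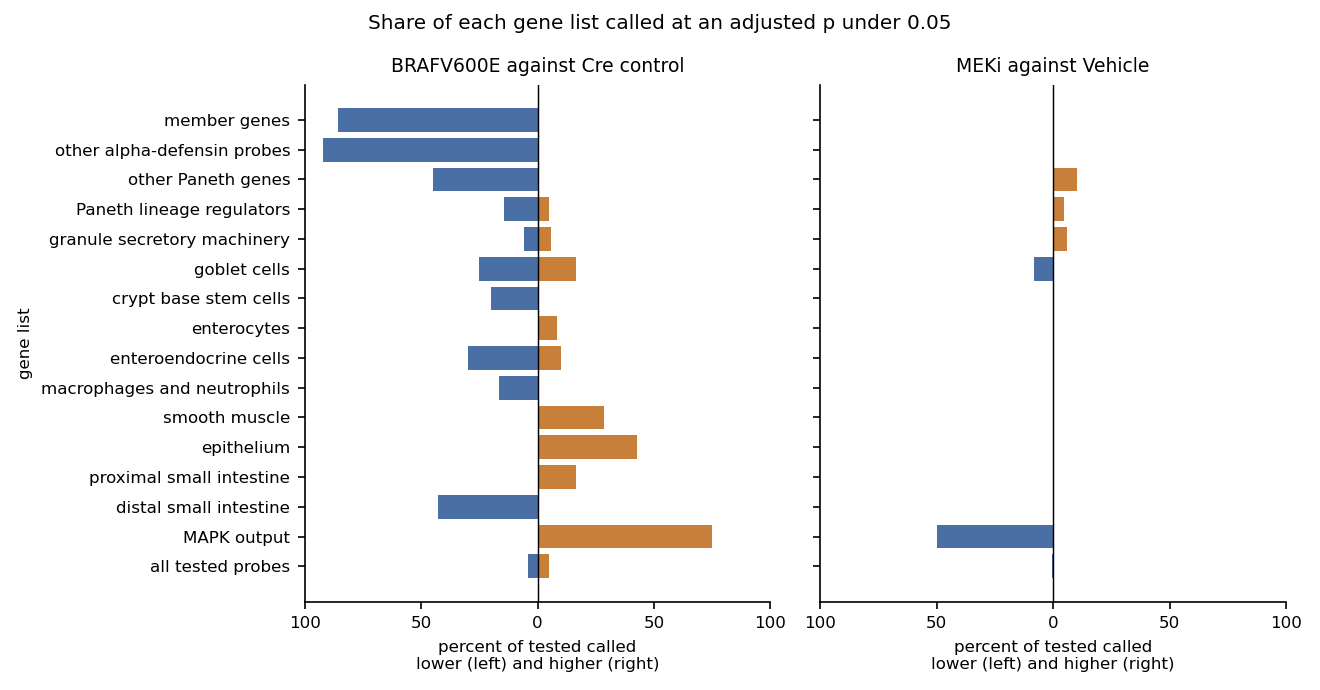
Share of each gene list called higher or lower by limma in BRAFV600E against Cre control and in MEKi against Vehicle. The granule genes had 6 of 7 called lower in the first and 0 of 7 called in the second, and the other Paneth cell genes 13 of 29 lower and 3 of 29 higher.

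The genes most like the granule genes in pattern were mostly defensins. The Pearson r of 36764 probes to the mean of the 7 was taken over the 20 arrays, with the group means removed. The top 8 genes outside the 7 were Defa36 at 0.98, then Defa25, Defa-ps1, AY761184 and Defa31 at 0.97. Next came Defa-rs10 and the intelectin gene Itlnb at 0.96, and Siglece at 0.95. Siglece, a sialic acid receptor of myeloid cells, stood at -2.28 in BRAFV600E (limma adjusted p = 0.00326) and at 1.27 in MEKi (limma adjusted p = 0.277). The mean itself holds Defa21, Defa24 and Defa26, and defensin probes share bases, so a high rank of other defensins was partly set in advance. The Itlnb probe shares a run of 17 bases with the Itln1 probe in the mean. Whether it also reads Itln1 RNA was not tested. Called and uncalled genes followed, mixed in rank. Npff at 0.95 and Ubash3b and Haao at 0.94 were called lower in BRAFV600E (limma adjusted p = 0.00052, 0.00052 and 0.00177). Pepd and Naaladl1 at 0.94 and Slc15a1 at 0.92 were not called (limma adjusted p = 0.0696, 0.0914 and 0.533).

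Promoters of these genes were searched in the RefSeq table (build GRCm38.p6) in the 250 bases before each start, on both strands. The letters ATCAAAG (reverse CTTTGAT), which TCF factors of Wnt signalling recognise, were in 13 of 16 alpha-defensin promoters and in 3.205% of all 32851. TATAAA was in 15 of 16 and in 12.368% of all. TGAGTCA, recognised by AP-1 factors downstream of MAPK signalling, was in 0 of 16 and in 4.463% of all, and CAGCTG in 1 of 16 and in 13.001% of all. Mmp7 and Ang4 each held TGAGTCA, 63 and 122 bases before the start. Mmp7 has a second start in the table, whose window held ATCAAAG 247 bases before it and no TGAGTCA. The first Mmp7 start and Ang4 held no ATCAAAG, and Lyz1 and Itln1 held none of these sequences. Of the defensin granule genes, Defa21 and Defa20 were among the 16 promoters, and Defa5, Defa17, Defa24 and Defa26 were not. Defa21 and Defa20 held ATCAAAG at 112 and at 72 bases before the start. The 100 bases before the start are printed for Defa21, Defa20 and Mmp7, with ATCAAAG or TGAGTCA in capitals, because they show the defensin promoters as near copies, with the upstream Mmp7 start beside them. They lie on the plus strand at chr8:21025445-21025544, chr8:21509158-21509257 and chr9:7691990-7692089.
Defa21 promoter: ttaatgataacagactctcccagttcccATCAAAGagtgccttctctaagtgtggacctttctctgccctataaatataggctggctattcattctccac
Defa20 promoter: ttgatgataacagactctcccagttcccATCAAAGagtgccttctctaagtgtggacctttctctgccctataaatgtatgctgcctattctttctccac
Mmp7 promoter: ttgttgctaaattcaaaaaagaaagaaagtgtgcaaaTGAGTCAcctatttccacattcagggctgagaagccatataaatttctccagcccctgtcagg
Defa21 and Defa20 had the same base at 95 of these 100 positions, and Mmp7 matched them at 30 and 31. A match to these letters describes the sequence and is no evidence that a factor binds there. The Lyz1 and Lyz2 promoters matched at 92 of 100 positions.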

How the data were processed

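Total RNA was hybridised to 20 Agilent SurePrint G3 Mouse arrays, 1 per mouse. The authors deposited scanner text files written by Agilent Feature Extraction 10.5.1.1, in which the processed signal intensity is background-subtracted within the array and not scaled between arrays. A deposited table of the same intensities, unscaled between arrays, served as an alternative. The other columns used were the files' own flags and probe annotation, as deposited. Probe positions are mm9, per the file headers.

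Groups came from the labels, which give no replicate numbers; numbers follow the order of deposition. From each array, log2 of the processed signal minus the 75th percentile over its non-control spots was taken, and copies of a probe were averaged. Probes well above background on at least 6 of 12 or 4 of 8 arrays of a comparison were tested with limma 3.58.1 in R 4.3.3 (lmFit and eBayes, two-sided, no covariates), with Benjamini-Hochberg adjustment over all probes tested and a threshold of 0.05. The steps were tested on simulated data. A gene with several probes was represented by the one of highest mean level over the 20 arrays. The number of arrays, not counting error, limits the precision, and p-values measure the spread between these mice.

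From each other gene list at most 4 genes are named, those called with the largest absolute log2 fold change, and Lyz2, Sox9, Atoh1, Gfi1, Spdef, Xbp1, Muc2, Lgr5 and Olfm4 whatever their values. Genes like the members in pattern are the 8 of highest r. The members and lists were chosen with earlier results of these data known. Alternatives were unscaled, quantile and normexp values (offset 50), other probe filters, 1 probe per gene, all arrays in 1 fit, Y-linked signal as a covariate, array weights, the slide as a block or slide 1 alone, and each array left out.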

Additional observations from a re-analysis of the deposited data

Results flagged for a closer look

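Of 76 sets of 1 probe in 1 group, 9 held an array far from the others, where chance gives about 1 in 20. Vehicle replicate 2 was far below the other Vehicle arrays for Mmp7 (2.27, next 4.32), Defa21 (1.43, next 6.78), Defa26 (5.35, next 7.36), Defa36 (4.002, next 7.13) and Defa2 (1.83, next 7.23), each as log2 level. Cre control replicate 4 was far below the other Cre control arrays for Defa24 (8.36, next 9.17) and for both Defa3 probes (8.32 and 8.36, next 9.01 and 9.003). The defensin probes share bases, so these are not separate events. BRAFV600E replicate 3 was far above the other BRAFV600E arrays for a Lyz2 probe (0.47, next -1.16).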

How the results depend on the processing

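Between 4 and 7 of the 7 granule genes were called lower in BRAFV600E under every setting tried, and 0 in MEKi. Lyz1, Itln1, Defa26 and the brighter Mmp7 probe stayed called in BRAFV600E throughout. The falls were smaller unscaled, with a median of -1.29 over the 7 genes beside -2.10 as reported. Lyz1 then stood at -1.19 and Defa24 at -0.15, the latter not called. The dimmer Mmp7 probe, at -0.96, lost its call there (limma adjusted p = 0.0775). Ang4 gained a call with quantile values, normexp, a stricter probe filter, the slide as a block, within slide 1 and without BRAFV600E replicate 5. The slide as a block and slide 1 alone gave the same Ang4 change of -3.23 and are not separate. The number of probes called in BRAFV600E, 3591 as reported, was 16289 unscaled, 9174 with normexp, 2390 with no filter, 5767 with all 20 arrays in 1 fit, 5537 with array weights, 1974 with the slide as a block, 702 within slide 1, 1907 with slide 2 BRAFV600E arrays alone, and 1916 to 5101 with 1 array left out. In MEKi, 364 as reported, it was 55 unscaled, 145 with no filter, 7 with Y-linked signal as a covariate, 1311 with array weights and 42 to 295 with 1 array left out. Of the calls in BRAFV600E 54.9% were higher, and 98.2% unscaled, where the median of all probes moved to 0.80, 31.3% with normexp, 38.7% with the slide as a block and 31.5% within slide 1. In MEKi 56.0% of the calls were higher, and 38.2% unscaled. Unscaled, these genes turned positive in BRAFV600E: Irgm1 0.54, Axin2 0.094, Csf1r 0.12, Sox9 0.24, Atoh1 0.49, Gfi1 0.25, Spdef 0.52, Xbp1 0.67 and Olfm4 0.71. Olfm4 also did with normexp (0.010), with the slide as a block and within slide 1 (0.46 in both). With 1 array left out it ranged from -0.28 to 0.079. Irgm1 was 0.031 with slide 2 arrays. In MEKi, Clps turned to 0.94, Rab3d to 0.15 and Sox9 to -0.18 with the Y-linked covariate, Clps to 0.56 and Rab3d to 0.044 with array weights. With 1 array left out, Clps ranged from -0.60 to 0.85, Rab3d from -0.11 to 0.050, Gata4 from -0.18 to 0.033, Tnfrsf19 from -0.062 to 0.36 and Sox9 from -0.15 to 0.27. The cause was not tested. No paired analysis was possible because the labels give no replicate numbers.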

Other observations

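Of 12 enterocyte genes, 1 was called in BRAFV600E, Alpi, the intestinal alkaline phosphatase of the brush border, which rose by 1.84 log2 units (limma adjusted p = 0.00284), and none in MEKi, where Alpi stood at -1.69 (limma adjusted p = 0.21). Of 10 enteroendocrine genes, the hormone genes Gcg, Gip and Sst fell in BRAFV600E by 1.84, 1.18 and 0.95 and Tac1 rose by 0.74, with the Gcg call lost in 10 of 25 other settings, and none was called in MEKi.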
